A study of Homo sapiens with 30 samples.

Results

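Human embryonic stem cells of the H1 line that were turned into posterior neural ectoderm and then kept in hindbrain medium (the group named pNE_H) had 50360 stretches of open chromatin that no other population of the study had in its peak list. These regions were selected on the deposited peak lists. Peaks of the 10 lists on chromosomes 1 to 22 sharing 1 bp or more were merged, and the resulting region was a member when it held a pNE_H peak and no peak of the other 9 lists. The members made up 10.6% of all 476170 merged regions and 17.3% of the 290377 regions that were open in pNE_H. Their number and their absence from the other lists follow from that choice and are given as a description. The peak width of the members was compared with that of the other pNE_H peaks.

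OmniATAC-seq, in which the Tn5 transposase cuts and tags accessible DNA, was applied to 30 libraries of 50000 cells each, 3 per group. All cells were wild-type H1 cells, 1 line. The groups were undifferentiated cells on day 0 (hPSC), definitive ectoderm on day 1 (DE), anterior (aNE) and posterior (pNE) neural ectoderm on day 2, and both of these ectoderm types carried to day 4 in telencephalon, midbrain or hindbrain medium (aNE_T, aNE_M, aNE_H, pNE_T, pNE_M and pNE_H). Every group past day 0 shared 1 day in CDM2 medium with A8301, Trametinib, C59 and LDN193189. The anterior groups then received A8301, LDN193189, C59 and Thiazovivin for 1 day, and the posterior groups received A8301, LDN193189, TTNPB at 50 nM, FGF2 at 20 ng/mL, XAV939 and Thiazovivin. What the hindbrain medium contained is not given in the sources used here. After day 1, cells meant for day 4 were seeded at 75000 (anterior) or 150000 (posterior) cells per square cm, so plating density and origin cannot be told apart. The day 2 groups aNE and pNE were both seeded at 37500 cells per square cm, so density also differed between the day 2 and day 4 lists.

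Each group had 1 deposited peak list, with no value per library and no score per peak. No test across replicates was therefore possible, and every value below compares lists, not conditions. Wilson 95% intervals cover the counting of regions only. Read depth was not used here, since the lists do not hold it. In such bulk lists, a site open in few cells and a site weakly open in many cells cannot be told apart. The lists give positions and no RNA, so the hindbrain label of the cells was set only against peaks near hindbrain genes, described further on.

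The vertebrate hindbrain is patterned by retinoic acid, which binds RAR and RXR receptors at direct repeats of a short half-site, and by FGF signals. HOX genes of the first paralog groups respond to retinoic acid early, and HOX proteins bind DNA together with the cofactors of the PBX and MEIS families. TTNPB is a synthetic agonist of the RAR receptors, XAV939 stabilises AXIN and so dampens WNT signalling, and A8301 and LDN193189 block the TGF-beta and BMP receptors. A peak far from gene starts can mark an enhancer, while a peak at a start marks a promoter.

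No genome sequence was used here, so the members were read as sequence only where they crossed a RefSeq promoter window (GRCh38.p14, 250 bases before to 50 bases after a gene start, 33725 windows of 26246 genes). Members and no other pNE_H region overlapped 290 windows, or 0.86% of all windows, belonging to 276 genes. Other pNE_H regions overlapped 64.4% of the windows, and 11 windows held both kinds and were counted with these. The window of FCRL6, an Fc receptor-like gene of lymphocytes, is shown because its member held 2 copies of the nuclear receptor half-site AGGTCA 5 bases apart, the spacing known for RAR binding. The repeat stood in 2 of all 33725 windows, the other being overlapped by a pNE_H region that was no member. The FCRL6 window lies at chr1:159802110-159802409 on the plus strand. Its member peak is 174 bp wide, at chr1:159802343-159802516, and the repeat runs from 17 to 33 bases after the start. Capitals mark the half-sites, which read TGACCT on this strand.
FCRL6: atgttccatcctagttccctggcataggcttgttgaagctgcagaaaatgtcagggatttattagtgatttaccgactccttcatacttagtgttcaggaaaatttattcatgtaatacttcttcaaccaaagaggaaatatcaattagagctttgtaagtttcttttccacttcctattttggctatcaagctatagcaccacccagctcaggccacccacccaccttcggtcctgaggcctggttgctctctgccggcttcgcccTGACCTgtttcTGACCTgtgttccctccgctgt

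The composite TGATNNAT, a form bound by PBX-HOX pairs, stood on either strand in 62 of the 290 member windows, 21.4% (17.1 to 26.5). It stood in 4.26% of the windows overlapped by other pNE_H regions, in 13.0% of the windows with no pNE_H peak and in 7.43% of all windows. In 27 of the 62 windows a copy lay inside the member peak itself, whose part of a window had a median of 129 bases. The 3 protein-coding windows with the widest such members are shown, with the copy inside the member in capitals: TINAG, an antigen of kidney tubule basement membrane (chr6:54308191-54308490, plus strand, member 501 bp wide), ARHGEF10L, a guanine nucleotide exchange factor (chr1:17519947-17520246, plus strand, member 333 bp wide), and SLAIN1, a microtubule-binding protein (chr13:77740969-77741268, plus strand, member 267 bp wide). The capitals in TINAG begin 56 bases before the start, at -56, and a second copy outside the member begins at -161. Those in ARHGEF10L and SLAIN1 begin at -33 and -124.
TINAG: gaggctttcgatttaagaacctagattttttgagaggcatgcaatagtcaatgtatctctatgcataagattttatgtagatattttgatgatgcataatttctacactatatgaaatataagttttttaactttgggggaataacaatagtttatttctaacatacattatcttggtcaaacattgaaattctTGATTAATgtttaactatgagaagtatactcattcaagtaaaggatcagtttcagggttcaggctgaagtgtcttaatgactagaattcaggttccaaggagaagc
ARHGEF10L: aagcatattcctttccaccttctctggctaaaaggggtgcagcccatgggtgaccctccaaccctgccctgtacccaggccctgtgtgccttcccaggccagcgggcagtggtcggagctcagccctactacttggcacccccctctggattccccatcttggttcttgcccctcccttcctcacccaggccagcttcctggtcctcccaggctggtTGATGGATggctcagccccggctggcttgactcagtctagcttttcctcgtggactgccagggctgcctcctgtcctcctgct
SLAIN1: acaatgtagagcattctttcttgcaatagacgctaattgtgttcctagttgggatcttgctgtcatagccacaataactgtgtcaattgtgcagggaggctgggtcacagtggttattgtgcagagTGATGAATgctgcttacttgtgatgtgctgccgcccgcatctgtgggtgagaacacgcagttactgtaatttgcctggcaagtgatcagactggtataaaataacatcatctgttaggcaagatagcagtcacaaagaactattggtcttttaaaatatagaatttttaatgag

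The member windows had a lower GC content than the windows of other pNE_H regions, with a median of 47.0% against 64.3%, and 4 against 24 CpG pairs. Windows with no pNE_H peak had 45.7% and 3 CpG pairs. The part of base composition in the motif shares was not tested. Among 27 motifs searched on both strands, the AP-1 site TGANTCA stood in 18.3% (14.3 to 23.1) of member windows, 5.30% of windows of other pNE_H regions and 11.8% of windows with no pNE_H peak, or 7.67% of all windows. The MEIS site TGACAG stood in 23.1%, 14.0% and 19.0% of the same sets, and the half-site AGGTCA in 21.7%, 10.7% and 19.5%. All windows had 15.8% and 13.8%. For MEIS and the half-site the share in windows with no pNE_H peak lay inside the interval of the member windows. Sites of GC-rich promoters went the other way: the SP and KLF site GGGCGG stood in 10.3% of member windows and 62.9% of windows of other pNE_H regions, and the ETS site CCGGAAG in 1.38% and 14.4%, with 45.0% and 10.3% over all windows. Of sites bound by developmental factors, the homeodomain core TAATTA stood in 6.21% of member windows (all windows, also in the parentheses that follow: 4.91%), the CDX and posterior HOX site TTTATNG in 15.9% (9.84%) and the SOX site ACAATG in 14.1% (10.8%). The octamer of POU factors, ATGCAAA, stood in 5.52% (4.45%), the proneural E-box CAGCTG in 20.3% (18.0%) and the E-box of NEUROG and ATOH factors, CATATG, in 5.52% (3.05%). The RFX half-site GTTGCCA stood in 5.52% (4.06%), the ONECUT site ATCGAT in 0.345% (0.741%) and the core of the CTCF site, AGGGGGC, in 4.48% (14.3%). The TEAD site ACATTCC stood in 6.21% (3.45%), the GATA site AGATAA in 19.3% (10.4%) and the TFAP2 site GCCNNNGGC in 8.62% (23.3%). The TCF-LEF site CTTTGAT stood in 3.45% (2.60%), the site CCCCCTG of ZIC and GLI factors in 5.86% (8.39%), the FOX site TGTTTAC in 3.10% (3.45%) and the OTX and GSC site GGATTA in 7.24% (6.37%). The EBF site, the NFI full site, the POU dimer and the direct repeats of the half-site spaced by 1 or 5 bases, which contain the half-site itself, were also searched. Only the PBX-HOX composite and the AP-1 site, and the NFI site and the repeat spaced by 5 with 1 member window each, stood in a share of windows with no pNE_H peak that lay below the interval of the member windows. For no motif did that share lie above it.

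No promoter window of a gene in the 12 gene lists used below was overlapped by a member alone. Of the 290 windows, 127 belonged to 116 protein-coding genes and 163 to long non-coding RNAs. The widest members at coding starts were at CA5A, a mitochondrial carbonic anhydrase (681 bp), GABRR3, a GABA receptor subunit (651 bp), SLC22A12, a kidney urate transporter (606 bp), TINAG (501 bp) and DDO, the D-aspartate oxidase (492 bp). KRT5, a keratin of basal epithelium, had a member of 385 bp at its start. Neural genes in the same set, picked out after the values were seen, were DCLK1, a microtubule kinase of neurons, RGS7, a regulator of G protein signalling, and MYT1L, a neuronal transcription factor.

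Of 1461 miRNA hairpins in the RefSeq table, members alone overlapped 15, or 1.03%, and other pNE_H regions overlapped 17.9%. These hairpins are described without a test. The mature sequences of 4 conserved families among the 15 are shown, with the seed (bases 2 to 8) in capitals. No seed was shared among them.
hsa-miR-125b-5p: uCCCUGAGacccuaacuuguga
hsa-miR-29a-3p: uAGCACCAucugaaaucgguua
hsa-miR-30c-5p: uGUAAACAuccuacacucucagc
hsa-miR-106b-5p: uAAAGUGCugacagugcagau
The member over MIR125B1, which encodes a neurally enriched miRNA, is 130 bp wide, at chr11:122099730-122099859. The member over MIR29A is 172 bp wide, at chr7:130876745-130876916, the member over MIR30C2 is 109 bp wide, at chr6:71376967-71377075, and the member over MIR106B is 519 bp wide, at chr7:100093693-100094211. A peak over a hairpin gives no measure of the miRNA's level.

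The pNE_H list was the longest and had the most exclusive regions. The pNE_H list held 302355 peaks on chromosomes 1 to 22, against 162041 (aNE) to 238994 (DE) in the other 9. Regions open in a single list made up 17.3% (17.2 to 17.5) of the pNE_H regions, 11.7% in DE, 11.3% in hPSC, 8.8% in pNE_M and 8.33% in pNE_T. They made up 4.69% in aNE_H, 3.39% in aNE_T, 3.08% in aNE_M, 2.13% in pNE and 1.60% in aNE. When each list was reduced to its widest 162041 peaks, the length of the shortest list, pNE_H kept 13995 exclusive regions, 8.82% of 158593,. The pNE_H share was then below hPSC (12.4%), pNE_T (10.4%) and pNE_M (10.3%) and above DE (8.03%) and aNE_H (6.05%). Of those 13995 regions, 9153 were members as defined on the full lists and 4842 were open in another list as deposited. At equal length the narrowest pNE_H peak kept was 262 bp wide, against 125 to 192 bp in the other lists. The higher share in pNE_H than in pNE_T and pNE_M thus held on the full lists and reversed at equal length.

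**Figure D1:**
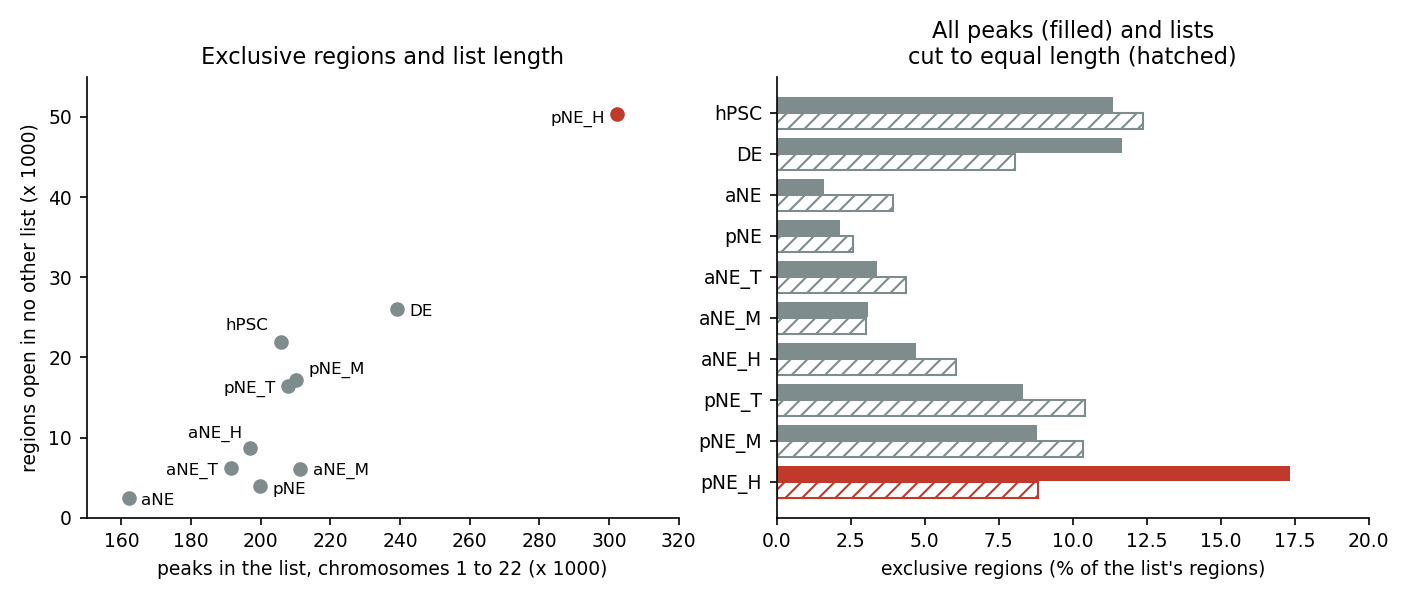
Left: regions open in a single list against the number of peaks in that list on chromosomes 1 to 22, both axes in units of 1000, 1 point per list, pNE_H in red. Right: the same regions as a percentage of each list's regions, for all peaks (filled bars) and for the widest 162041 peaks of each list (hatched bars); pNE_H goes from 17.3% to 8.82%.

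The member peaks were narrow. Their median width was 165 bp (quartiles 127 and 229 bp), against 328 bp (196 and 589 bp) for the other pNE_H peaks. Exclusive peaks of the other 9 lists had medians of 149 to 173 bp, so narrow widths were shared by the exclusive peaks of all 10 lists. The narrowest width in the pNE_H list was 109 bp, and 5242 members (10.4%) had exactly this width, against 2.28% of the other pNE_H peaks. At least 500 bp was reached by 1229 members (2.44%) and by 31.5% of the other pNE_H peaks. A wide peak meets a peak of another list more easily than a narrow one, so width and membership are tied by the rule. Members were 38.5% of the pNE_H peaks under 150 bp, 28.1% from 150 to under 200 bp, 17.8% from 200 to under 300 bp, 8.31% from 300 to under 500 bp, 2.08% from 500 to under 1000 bp and 0.110% at 1000 bp and over, where 25 members remained. All members together covered 9.99 Mb, 8.01% of the bases under pNE_H peaks.

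**Figure D2:**
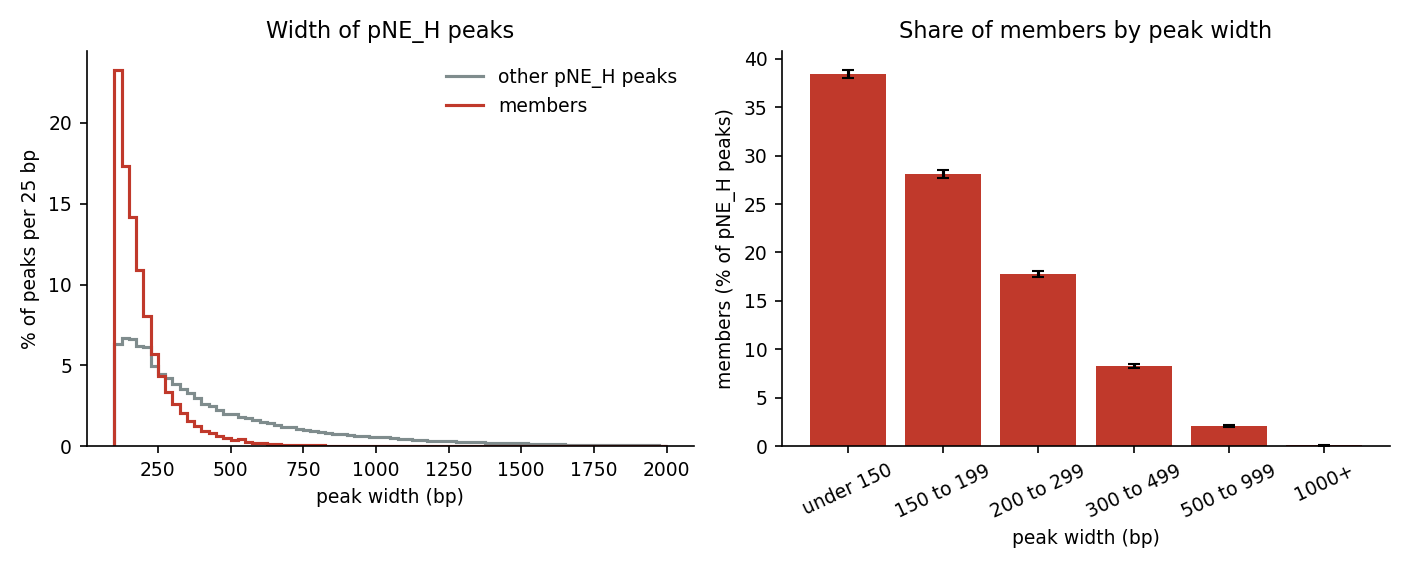
Left: percentage of peaks per 25 bp of peak width, for member peaks (red) and other pNE_H peaks (grey). Right: members as a percentage of all pNE_H peaks in each width class, with Wilson 95% intervals as error bars; the share goes from 38.5% under 150 bp to 0.110% at 1000 bp and over.

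The widest member, 1649 bp, lay outside coding genes at chr11:109809956-109811604, and the nearest peak of another list was 3879 bp away. The next widest, 1413 bp at chr5:143647060-143648472, also lay outside coding genes. The third, 1336 bp at chr18:59593579-59594914, lay inside CCBE1, a secreted factor of lymphatic vessel growth, 102509 bp downstream of its start. Others of the 10 widest lay inside MARCHF1, a ubiquitin ligase (1234 bp), TRABD2B, a WNT-cleaving protease (1207 bp), the overlapping genes IQCJ and IQCJ-SCHIP1 (1181 bp) and CNST (1169 bp). The smallest distance from any of these 10 to a coding start was 31545 bp, at PDLIM3. None of the 10 lay in the windows of the listed patterning genes.

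Just outside the rule stood 36285 regions open in pNE_H and exactly 1 other list, and their pNE_H peaks had a median width of 207 bp. The other list was pNE_T for 13635 of them (37.6%) and pNE_M for 9906 (27.3%), and aNE_H, which shared the hindbrain medium, for 2780 (7.66%). It was aNE for 318 (0.876%). The 2 posterior-derived lists of the same day thus held most of these near misses. Regions open in 3 lists had a median width of 238 bp, and the 78808 regions open in all 10 lists had one of 589 bp. On the inner side, 1838 members (3.65%) had a peak of another list within 100 bp and 20419 (40.5%) within 1000 bp. The median gap from a member to the nearest peak of another list was 1461 bp.

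Few members lay near gene starts. Of the members on the 21 chromosomes with start sites in the RefSeq table, 2.16% lay within 1 kb of a start, against 8.49% of the other pNE_H regions. The median distance to a start was 47248 bp for members and 33391 bp for the others, and 28.0% against 20.4% lay more than 100 kb away. Within 1 kb of either end of a gene lay 3374 members, 6.70% (6.49 to 6.92), against 14.5% (14.3 to 14.6) of the other pNE_H regions. The exclusive regions of 3 other day 4 lists stood close to the members on this measure, with 6.58% in aNE_H (6.07 to 7.12), 6.38% in pNE_M (6.03 to 6.76) and 6.58% in pNE_T (6.21 to 6.97). Coding genes held 45.2% of the members and 49.8% of the other regions, and 40.5% against 37.6% lay outside coding and long non-coding genes.

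The gap in gene ends was smaller within each width class under 1000 bp and larger above it. Among peaks under 150 bp, 6.46% of members (6.14 to 6.81) and 8.40% of other regions (8.09 to 8.72) lay within 1 kb of a gene end. From 300 to under 500 bp the shares were 6.90% (6.24 to 7.62) and 9.56% (9.32 to 9.81). From 500 to under 1000 bp they were 8.64% (7.18 to 10.4) and 15.1% (14.8 to 15.4). The share was lower in members in each of these 3 classes, by intervals that did not meet. At 1000 bp and over, 0 of the 25 members and 52.7% (52.0 to 53.3) of the other regions had a gene end within 1 kb. In that class 42.7% of the other regions covered a gene start and none of the 24 members with a start site on their chromosome did.

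**Figure D3:**
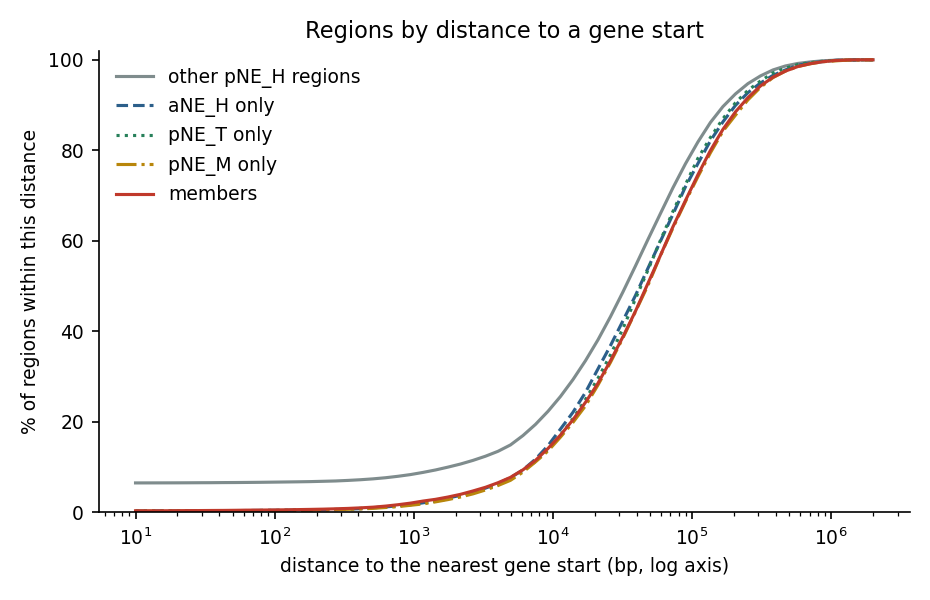
Percentage of regions (vertical axis) within a given distance of the nearest gene start (bp, log axis) for members, other pNE_H regions and the exclusive regions of aNE_H, pNE_T and pNE_M. The curves of the 4 exclusive sets run close together and below that of the other pNE_H regions, with 2.16% of members and 8.49% of other pNE_H regions within 1 kb.

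Across chromosomes the members' share of pNE_H regions ran from 9.08% on chromosome 19, which is rich in genes, to 21.4% on chromosome 13 and 21.2% on chromosome 4, which are poor in genes. Inside coding genes it rose with gene length, from 6.56% in genes under 10 kb to 20.8% in genes over 500 kb. The genes with most members within 50 kb were long: MACROD2, an ADP-ribose hydrolase (68 of 230 pNE_H regions), RBFOX1, a neuronal splicing factor (62 of 291), PTPRD, a receptor phosphatase of synapses (58 of 232), LRMDA (57 of 209) and ROBO2, a receptor in axon guidance (52 of 165). CSMD1, LRP1B, OPCML and NRXN3 were also among the 10 genes with most members, with 44 to 49 each. A further member lay within 5 kb of 24.9% of the members, against 61.7% for the other pNE_H regions among themselves, which are more numerous, and 13.1% for the exclusive regions of pNE_M and 12.3% for those of pNE_T, which are fewer.

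With so many members, most coding genes had one: 14724 of 19126 genes, or 77%, had at least 1 member within 50 kb. Near any coding gene, 15.5% of the pNE_H regions were members. The shares near listed genes are read against this value. The lists were chosen with earlier results of these data known.

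Near the hindbrain patterning factors the share was at the background. Of 636 pNE_H regions within 50 kb of the 26 genes, 95 were members, 14.9% (12.4 to 17.9), and 24 of the 26 genes had at least 1. By peak width the shares were 34.6% under 200 bp, 18.5% from 200 to under 300 bp and 2.94% from 300 bp, against 33.5%, 16.9% and 3.86% near all coding genes. Near genes of the retinoic acid pathway, 111 of 632 regions were members, 17.6% (14.8 to 20.7), at 17 of the 20 genes, an interval that also holds the background. RARB and NRIP1 held 43 and 14 of these members. Without them, in a comparison added after the values were seen, the other 18 genes had 54 of 461, 11.7% (9.09 to 14.97). RARB and NRIP1 were left out because they held the most members. A lower share follows from that choice, so it is not read against the background. Near ventral neural tube genes the share was 16.1% (12.3 to 20.9), with 45 of 279. Near FGF and WNT signalling genes it was 13.2% (10.9 to 15.8), with 98 of 745, and near surface ectoderm and placode genes 12.9% (10.2 to 16.2), with 61 of 473.

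The remaining 7 lists lay below the background, by intervals that did not reach it. The share was 10.5% (7.44 to 14.7) near pluripotency genes, with 29 of 275. In windows of 10 kb it was 16.4%, where all coding genes had 15.4%, and no interval was made for that value. At 50 kb the share was 10.4% (8.16 to 13.3) near proneural and neuronal genes, 9.45% near neural progenitor genes and 8.37% (6.27 to 11.1) near forebrain and midbrain factors. It was 8.31% near mesoderm and endoderm genes, 8.04% near neural crest and dorsal genes and 5.51% (3.31 to 9.04) near spinal cord and posterior factors. Near forebrain and midbrain factors the share was also lower by width, with 24.4% under 200 bp, 9.09% from 200 to under 300 bp and 0.687% from 300 bp. Near spinal cord and posterior factors, pNE_H had 14 exclusive regions and pNE_M had 28, although pNE_M had 17167 exclusive regions in all. At equal list length the share near all coding genes was 7.61%, with 5.95% near hindbrain factors, 8.29% near retinoic acid genes, 2.81% near forebrain and midbrain factors and 3.45% near spinal cord and posterior factors.

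**Figure D4:**
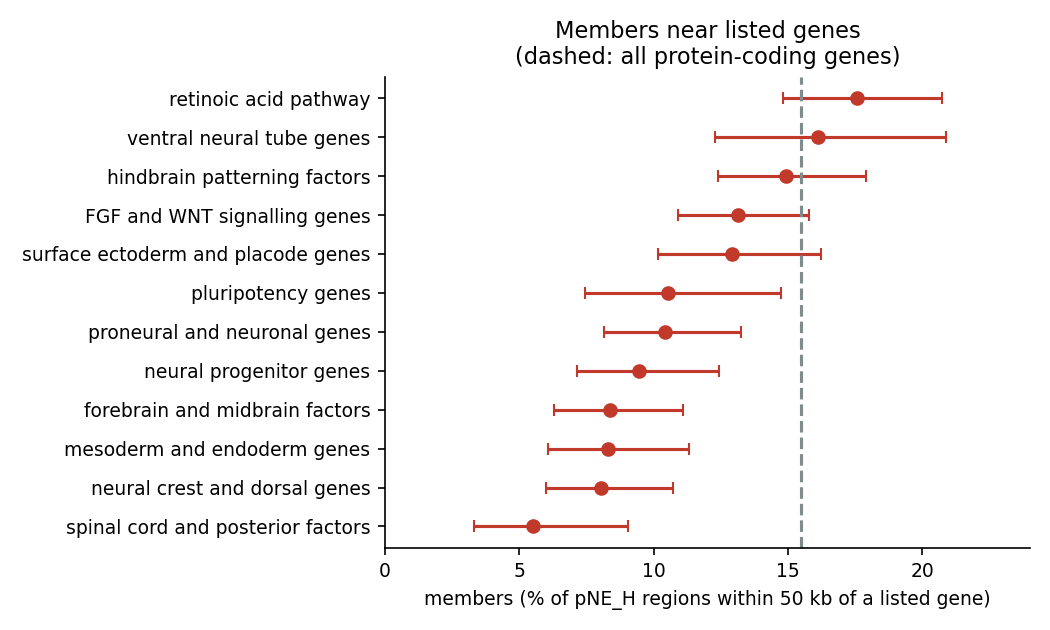
Members as a percentage of the pNE_H regions within 50 kb of the genes of each list (points) with Wilson 95% intervals (bars); the dashed line is the 15.5% near all protein-coding genes. The line is crossed by the intervals of retinoic acid (with RARB and NRIP1), ventral neural tube and hindbrain genes. It is also crossed by those of FGF and WNT signalling genes and of surface ectoderm and placode genes. Spinal cord and posterior factors are lowest at 5.51%.

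Among retinoic acid receptors, RARB, which is itself switched on by retinoic acid in many cells, had the most members, 43 of 132 pNE_H regions (32.6%). The gene spans chr3:24829321-25597932, and 42 of the 43 members lay inside it. Near all coding genes the share was 15.5%, and inside coding genes over 500 kb, a class that holds RARB, it was 20.8%. Across the 10 coding genes with most members, all long, the share ran from 18.5% (NRXN3) to 31.5% (ROBO2). In the window of RARB the lists held 38 (hPSC), 57 (DE), 39 (aNE), 60 (pNE), 49 (aNE_T), 49 (aNE_M), 51 (aNE_H), 85 (pNE_T), 81 (pNE_M) and 137 (pNE_H) peaks. The 3 posterior-derived day 4 lists thus held the most peaks in this window. How many coding genes show the same order of lists was not counted, and pNE_H was the longest list. Exclusive regions in the window numbered 16 in pNE_T, 9 in pNE_M, 8 in DE, 3 in hPSC, 2 in pNE, 1 each in aNE, aNE_T and aNE_H and 0 in aNE_M. At equal list length pNE_H had 13, pNE_T had 15 and pNE_M had 10, so the excess of pNE_H over pNE_T at RARB did not hold at equal length. The RARB members were 109 to 504 bp wide, with a median of 166 bp. The widest lay at chr3:24966193-24966696, 136872 bp downstream of the start. RARA and RARG, the other two RAR genes, had 4 members of 22 and 3 of 21 regions, and RXRA, their partner, had 6 of 45.

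NRIP1, a corepressor of nuclear receptors, had 14 members of 39 regions (35.9%), 11 of them inside the gene, which spans chr21:14961235-15065936. The share was 15.5% near all coding genes and 14.8% inside coding genes of 50 to 200 kb, the length class of NRIP1. The other 9 lists held 12 to 21 peaks in the window, where pNE_H held 39. Exclusive regions numbered 1 each in DE, pNE and aNE_T and 0 in the other 6 lists. All 14 members were narrow, from 110 to 305 bp, and at equal list length pNE_H had 2 exclusive regions, against 0 or 1 in each other list. NR6A1, an orphan nuclear receptor, had 9 members of 74. Among enzymes, DHRS3, which reduces retinaldehyde, had 6 of 28, CYP26B1, which degrades retinoic acid, had 4 of 21, and CYP26A1, of the same family, had none of 19.

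**Figure D5:**
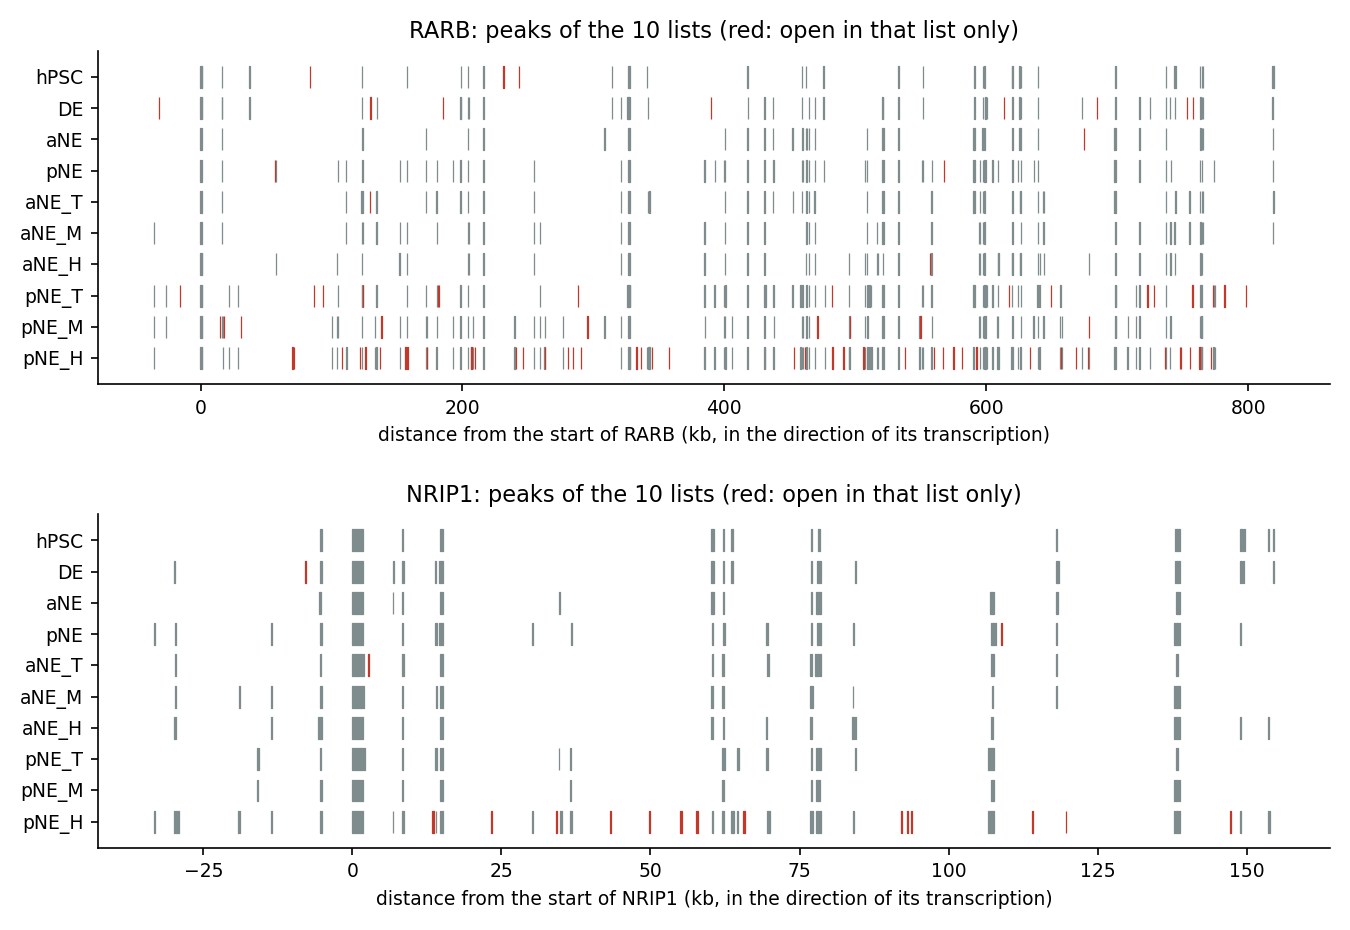
Peaks of the 10 lists (rows) in the windows of RARB (top) and NRIP1 (bottom) by distance from the gene start (kb, in the direction of transcription); red peaks are open in that list only. The pNE_H row holds 43 members at RARB and 14 at NRIP1, and the red peaks of pNE_T and pNE_M at RARB number 16 and 9 regions.

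Among the hindbrain factors, the cofactors of HOX proteins held the most members. MEIS2 had 17 of 68 regions and MEIS1 had 10 of 46. At MEIS1 the other lists held 28 to 44 peaks and pNE_H held 54, and exclusive regions numbered 2 in hPSC, 2 in pNE_M and 0 or 1 in the rest. The widest member near any hindbrain factor, 585 bp, lay inside MEIS1 at chr2:66444198-66444782, 9073 bp downstream of the start, with the nearest peak of another list 353 bp away. A further MEIS1 member of 553 bp lay at chr2:66477146-66477698. With lists of equal length MEIS1 had 5 exclusive regions in pNE_H, 3 in pNE_M, 1 in hPSC and 0 in the other lists. At MEIS2 the order turned, with 3 in pNE_H and 6 each in pNE_T and pNE_M. EGR2, which marks a pair of hindbrain segments, and FGF3 had no member among 16 and 22 regions. Near EGR2 the pNE_H list held 16 peaks and the other lists 10 to 17.

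In the HOX clusters the share of members differed from cluster to cluster. The HOXA cluster, chr7:27092993-27200091, had 6 members among 35 pNE_H regions, 3 of them inside HOXA3. Its share was 17.1%, against 15.5% near all coding genes and 17.3% over all pNE_H regions. The widest, 401 bp at chr7:27111512-27111912, lay inside HOXA3. A member of 185 bp lay near HOXA9. Exclusive regions in HOXA numbered 2 in hPSC and in pNE_M, 1 in aNE, pNE, aNE_M and pNE_T, and 0 in DE, aNE_T and aNE_H. The HOXB cluster had 4 members of 56 (7.14%) and the HOXD cluster 2 of 40 (5.00%), both inside HOXD3. The HOXB and HOXD shares were below the 15.5% near all coding genes, and no interval was made for them. The HOXC cluster, which lacks the first paralog groups, had 0 of 33, while pNE_M had 8 exclusive regions there. In HOXB, pNE_M and hPSC had 5 exclusive regions each and DE had 4, and in HOXD pNE_M had 4. With lists of equal length HOXC had 9 in pNE_M and 0 in pNE_H, and HOXA had 2 and 1. HOXB then had 7 in pNE_M and 2 in pNE_H, and HOXD had 6 and 0.

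In the FGF and WNT list, whose share as a whole was at the background, SPRY2 and DUSP6 had the most members. SPRY2, an inhibitor of receptor tyrosine kinase signalling, had 9 members of 21 regions, where hPSC had 1 exclusive region and the other 8 lists 0. The lists held 10 (hPSC), 9 (DE), 8 (aNE), 10 (pNE), 7 (aNE_T), 9 (aNE_M), 9 (aNE_H), 7 (pNE_T), 11 (pNE_M) and 22 (pNE_H) peaks near SPRY2. Only the pNE_H count lay above 11. Of the members, 4 lay together 33419 to 38323 bp upstream of the SPRY2 start, between chr13:80374545 and chr13:80379596, with no peak of another list closer than 6306 bp. DUSP6, a phosphatase of ERK, had 8 members of 29, where DE and pNE_M had 1 exclusive region each. With lists of equal length SPRY2 had 3 in pNE_H and 1 each in aNE_H and pNE_M, and DUSP6 had 3 in pNE_H and 2 in pNE_M. TCF7L2, a WNT effector, had 7 of 60 regions, fewer than the 10 exclusive regions each of hPSC and DE. FGF8, the ligand of the midbrain-hindbrain boundary, had 0 members of 14.

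Among ventral genes, whose share as a whole was at the background, HHIP, which binds SHH, had 8 members of 30. SHH itself had 6 of 22 and SIM1 had 6 of 40. The shares of HHIP and SHH lay above the 15.5% near all coding genes, and that of SIM1 did not. No interval was made for single genes. Exclusive regions at HHIP numbered 1 in hPSC, pNE_T and pNE_M and 0 in the other 6 lists. A member of 506 bp lay inside HHIP at chr4:144718297-144718802, 72141 bp downstream of the start, with no peak of another list within 4686 bp. At SHH 7 other lists had 1 or 2 exclusive regions each, and OLIG2, a factor of motor neuron progenitors, had no member among 16 regions. IRX1, listed with the neural progenitor genes, had 4 members of 19 regions and no exclusive region in any other list. At equal list length HHIP had 2 exclusive regions in pNE_H, pNE_T and pNE_M alike and IRX1 had 1, as in hPSC, pNE and pNE_M.

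Among proneural genes EBF1, a factor of differentiating neurons, had 12 members of 85 (14.1%) and EBF3 had 8 of 46 (17.4%), where all coding genes had 15.5%. At equal list length EBF1 had 5 exclusive regions in pNE_H and 4 in aNE_H. EBF3 then had 3 in pNE_H and 4 each in hPSC and DE. ELAVL3, an RNA-binding protein of neurons, had none of 21. Of the forebrain and midbrain factors PAX2 and PAX5, both active at the midbrain-hindbrain boundary, had 8 members each, of 44 and 56 regions, and the rest had 3 or fewer. Exclusive regions at PAX5 numbered 7 in hPSC, 5 in DE and 4 in pNE_T, and at PAX2 4 in aNE_H. At equal list length pNE_H had 1 at each gene, against 7 in hPSC at PAX5 and 3 in aNE_H at PAX2. OTX2, a factor of the forebrain and midbrain, had none of 17. EMX2, a dorsal telencephalon factor, had none of 19. For other cell types, EYA1 had the most members of the surface ectoderm and placode list, 10 of 50 regions, where pNE_M also had 10 exclusive regions. TP63, a factor of basal epithelium, had 9 of 39, where pNE_M had 5, and EYA2 had 8 of 52, where DE had 16. In the mesoderm and endoderm list TBX5, a heart and limb factor, had 5 of 29, where pNE_T had 4, and GATA4 and CDH5 had 3 of 31 and 3 of 30. Of the neural crest and dorsal genes ZEB2 had the most, 6 of 55. These lists had shares of 12.9%, 8.31% and 8.04%, none above the 15.5% near all coding genes.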

How the data were processed

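Peak positions of OmniATAC-seq libraries in H1 cells were analysed, 10 groups of 3 libraries. The deposited lists give chromosome, start and end, 1 list per group, with no header, score or count. Reads were handled with Bowtie2 and peaks with MACS2 on hg38, per the submitters' processing notes, which also name FastQC, bedtools, featureCounts, edgeR and deepTools; versions, thresholds and how replicates were combined are not given in the sources used here. Whether depth or threshold differed between lists was not tested; exclusive regions depend on list length.

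Peaks on chromosomes 1 to 22 were merged at 1 bp overlap with pandas 2.3.3 and numpy 2.4.6; bedtools 2.31.1 gave the same 50360 members. The code was tested on simulated lists. Genes (RefSeq, GRCh38.p14) had windows of 50 kb on each side. Start sites and promoter windows on chromosome 8 were not used here. Of 265 listed gene entries, 260 were matched. The members and lists were chosen with earlier results of these data known. Genes named were, per list, the 3 with most members and the gene without members but most pNE_H regions, and, over all genes, the 10 with most members; regions named were the 10 widest and the widest per list. Other listed genes are named for their role. A few genes that the rule names are not reported here. The search of promoter windows was chosen after seeing the data. Alternatives were shorter lists, other gap and overlap rules, and other gene windows.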

Additional observations from a re-analysis of the deposited data

Results flagged for a closer look

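Chromosome X was outside the rule for members and held further regions open in pNE_H alone: 1812 of 10092 pNE_H regions there, 17.9%. The other lists had from 90 (aNE) to 913 (DE) exclusive regions on this chromosome. The pNE_H list was again the longest, with 10464 peaks against 5548 to 8343.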

How the results depend on the processing

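The number of members, 50360, moved by more than 1.5 times under 3 alternatives. It was 29941 when a peak of another list within 1000 bp counted as open, 24563 when each list kept its peaks at or above its own median width, and 13995 at equal list length. It stayed within 1.5 times under the others: 48522 with a gap of 100 bp, 66454 where peaks of another list had to cover 50% of the peak, 42362 with windows of 500 bp, 52172 with chromosome X, and 50678 to 63995 with 1 of the other 9 lists left out, the highest without pNE_T. The median width, 165 bp, became 341 bp at equal length, 167 bp with the 1000 bp gap and 188 bp at 50% coverage. The share within 1 kb of a gene end, 6.70%, became 7.22%, 5.59% and 7.07% under the same 3 settings. The share near retinoic acid genes was 20.98% in windows of 10 kb, above the 15.37% near all coding genes, and 16.08% in windows of 100 kb, where all coding genes had 15.73%. Without RARB and NRIP1, the genes with most members in that list, the share near retinoic acid genes was 11.7%. This alternative was added after seeing the data, and a lower share follows from its choice of genes. At equal length the shares were 7.61% near all coding genes, 5.95% near hindbrain factors and 8.29% near retinoic acid genes. Of the other 10 lists, 9 stayed within their interval at 10 kb (all but pluripotency genes, 16.35%), 8 at 100 kb and 1 at equal length. Apart from list length and fewer peaks, which the alternatives set themselves, the cause was not tested. No paired analysis was possible because each group has 1 list and no value per replicate; leaving out a replicate could not be run for the same reason. Motifs were not searched in the members themselves for want of a genome sequence.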

Other observations

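Among coding genes with at least 10 members, the highest shares of members were at CNOT2, a subunit of the mRNA deadenylase complex (11 of 25 pNE_H regions, 44.0%), PLOD2, a collagen lysyl hydroxylase (11 of 25), and ZNF804B, a zinc finger gene (22 of 50). At CNOT2 the lists held 8 to 14 peaks outside pNE_H and 25 in pNE_H, and exclusive regions numbered 2 in pNE_M, 1 in DE and 0 in the other 7 lists. At equal list length CNOT2 had 3 exclusive regions in pNE_H, 1 each in pNE and aNE_H and 0 elsewhere. CDH18, a neuronal cadherin of 1104 kb, had 35 members of 84 regions (41.7%), where the other lists had 0 to 6 exclusive regions. At equal list length CDH18 had 10 in pNE_H and 9 in aNE_H. SPOCK3, a secreted proteoglycan of the nervous system, had 20 members of 48 regions, and at equal list length 3, below the 7 of pNE_M. These genes were ranked by the same lists that define the members, so the ranks are a description.

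MACROD2 had the most members of any coding gene and also the most exclusive regions of pNE_H at equal list length among the genes named here, 27, against 13 each in pNE_T and pNE_M and 11 in hPSC. PTPRD had 21, against 17 in pNE_M and 14 in pNE_T, and LRMDA had 20, against 19 in pNE_M and 13 in pNE_T. Other genes of the same ranking went the other way: RBFOX1 had 15 in pNE_H, 20 in pNE_M and 18 each in hPSC and DE, ROBO2 had 14 and 17 in pNE_M, NRXN3 had 11 and 15 each in pNE_T and pNE_M, and CSMD1 had 17 and 18 in pNE_T.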
